A study of Mus musculus with 16 samples.

Results

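The 30 genes described here encode 19 enzyme subunits of the tricarboxylic acid (TCA) cycle and cytosolic counterparts, 2 enzymes that link it to pyruvate, 5 enzymes of glutamine and transamination, and 4 carriers of the inner mitochondrial membrane. They were chosen by name, and all 30 of 30 were present among the 15571 genes of the count table and among the 14985 that were tested. Their mRNA was measured by sequencing in mouse CD4 T cells held for 3 days in a culture that induces Th17 cells, the helper T cells defined by IL-17 production. The 16 libraries formed 4 groups of 4. The KO acetate cells came from mice with loxP-flanked PDH alleles and CD4-Cre and were differentiated with 10 mM sodium acetate. The WT acetate cells carried the same loxP-flanked alleles without Cre and received the same acetate. The KO untreated cells carried the alleles with CD4-Cre, and the WT untreated cells carried them without Cre, and neither received acetate. All cells were naive CD4 T cells sorted from spleen and lymph nodes and given anti-CD3, anti-CD28, IL-6, TGFβ and an IFNγ-blocking antibody. CD4-Cre is driven by a T cell promoter and is active from thymic development onward, so the deletion was not timed to the culture. By the labels no group had CD4-Cre without loxP alleles and no group received sodium without acetate, so these cannot be told apart from the knockout and from acetate. The sample titles write PHD where the protocols and the design text write PDH, and the labels do not say which subunit gene was deleted. Nor is it given whether the libraries of a group stem from different mice or cultures, so p-values measure only the spread between these libraries, which may be technical.

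Pyruvate dehydrogenase turns pyruvate into acetyl-CoA, which citrate synthase joins to oxaloacetate to start the TCA cycle. The cycle oxidises citrate by way of 2-oxoglutarate, succinyl-CoA, succinate, fumarate and malate back to oxaloacetate, and it supplies citrate and aspartate for biosynthesis in dividing T cells. Pyruvate carboxylase and the glutamine-derived carbon replace what is withdrawn, and the malate-aspartate shuttle carries reducing equivalents of cytosolic NADH into the mitochondrion through paired transaminases, malate dehydrogenases and carriers. Acetate can be converted to acetyl-CoA by synthetases that do not need pyruvate dehydrogenase.

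Without acetate, KO cells held less mRNA of 12 of the 30 genes and more of 3 than WT cells, and with acetate in KO cells 11 of the 30 rose and 7 fell. The genes that were lower in untreated KO cells included 5 of the 7 genes of the malate-aspartate shuttle, above all the aspartate-glutamate carrier Slc25a12, and 6 of the 19 genes of the cycle (Cs, Idh3a, Idh3b, Suclg1, Sdhd and Fh1). Pcx, Suclg2 and Glul were higher in untreated KO cells. Between KO and WT cells that had both received acetate, 1 of the 30 genes was called, the 2-oxoglutarate carrier Slc25a11. In that comparison 11 of the 30 had an unadjusted p under 0.05 by edgeR's test, so genes not called were not shown to be equal. Calls were made with edgeR's quasi-likelihood test at an adjusted p under 0.05, with Benjamini-Hochberg adjustment over all 14985 genes. As these were bulk samples, less mRNA per cell and fewer cells of a type cannot be told apart.

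Many genes outside this group also changed, and the counts are to be read beside them. In untreated KO against untreated WT cells, 50% of the 30 genes were called, where 36.6% of all tested genes were. Those lower in KO made up 40.0% of the 30, against 18.6% of all genes, and those higher 10.0%, against 18.0%. Acetate in KO cells changed 60.0% of the 30 and 43.7% of all genes. Of the 30, 36.7% rose and 23.3% fell with acetate in KO cells, where the shares over all genes were 22.1% and 21.6%, so that the share that fell was near the background. Acetate in WT cells changed 16.7% of the 30 (2 higher, 3 lower), close to the 15.4% of all genes. KO against WT cells under acetate gave 3.3% of the 30 (1 lower) and 1.00% of all genes. KO acetate against WT untreated cells gave 33.3% of the 30 (2 higher, 8 lower) and 26.4% of all genes. The interaction, which tests whether the acetate change in KO cells differs from that in WT cells, was called for 23.3% of the 30 (5 positive, 2 negative) and 11.9% of all genes. Scaled by library totals in place of the trimmed mean of M-values (TMM), the splits were 1 higher and 13 lower in untreated KO cells, 11 higher and 2 lower with acetate in KO cells, and 2 higher and 1 lower with acetate in WT cells. No test was made of the 30 genes as a group.

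The median log2 fold change of the 30 genes was -0.14 in untreated KO against untreated WT cells, where the median of all genes was 0.014. It was 0.04 with acetate in KO cells, where that of all genes was -0.009, and between -0.08 and 0.02 in KO against WT cells under acetate and in WT cells with acetate. The 4 libraries of one group all lay above or all below the 4 of the other for 14 of the 30 in KO against WT untreated, where 36.0% of all tested genes did so. The count was 14 of 30 with acetate in KO, beside 37.7% of all genes, 12 of 30 with acetate in WT, beside 21.3%, and 7 of 30 in KO against WT under acetate, beside 9.36%. The set called lower in untreated KO cells and higher with acetate in KO cells held 10 genes, and the set with the opposite order held 2, Pcx and Glul. Both comparisons use the same 4 KO untreated libraries, so the match of the directions is a description only. The shares of all tested genes with either order are not given here, so the 2 counts have no background to be read against. For 9 genes no comparison was called: Idh1, Ogdh, Dlst, Sucla2, Mdh1, Mdh2, Glud1, Gpt2 and Slc25a10.

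**Figure D1:**
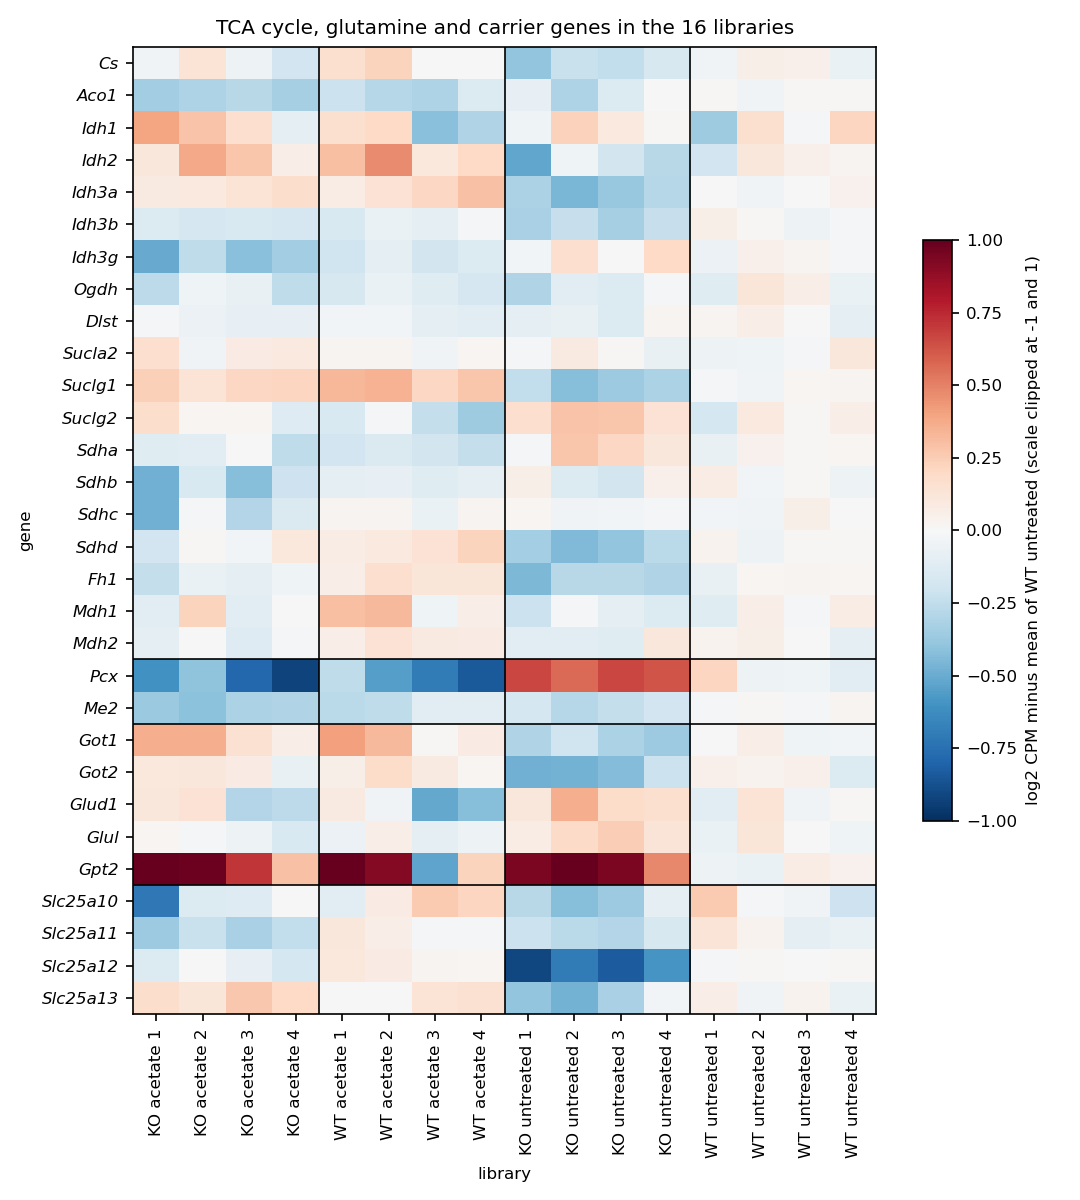
Level of each of the 30 genes (rows, grouped as cycle, pyruvate-linked enzymes, glutamine and transaminases, and carriers) in each library (columns), as log2 CPM minus the mean of the WT untreated libraries, with the colour scale clipped at -1 and 1. In the rows of Slc25a12, Got2, Idh3a, Suclg1 and Sdhd the KO untreated columns are bluer than all other columns, and in the row of Pcx they are redder. The acetate columns of both genotypes are blue for Aco1 and Pcx.

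Levels are given in CPM, which are counts scaled to a common library size and not to gene length, so they are not compared between genes. The libraries held 24571177 to 33723470 counts. One gene without a symbol took between 0.267% and 9.137% of them, with the largest shares, 7.995% in KO acetate 2, 9.137% and 3.27% in KO untreated 1 and 2, and 5.889% in WT untreated 1. Results are also given without these 4 libraries, called high-share below, where that ends a call. Among the genes of the pyruvate dehydrogenase complex, Pdha1 ranged from 232 to 262 CPM in KO acetate, 250 to 273 in WT acetate, 210 to 235 in KO untreated and 234 to 263 in WT untreated libraries. The KO and WT ranges of Pdha1 overlapped, and it was not called in untreated KO cells (log2 fold change -0.14, standard error [SE] 0.0585, adjusted p = 0.0761, edgeR). Of the 5 genes of the complex 2, Dlat and Pdhx, were lower in untreated KO cells and none was higher. The 2 made up 40.0% of the 5, where 36.6% of all genes were called and 18.6% were lower. With DESeq2 or under library totals 3 were lower, Pdha1 among them. Without the 4 high-share libraries 1 was lower, and the same count was left without KO untreated 1, 3 or 4 or WT untreated 2 or 4. Whole-gene counts do not check the loss of an exon. Pdhx, the subunit that anchors the E3 enzyme, was 0.32 log2 units lower in untreated KO cells (SE 0.075, adjusted p = 0.00256). Of the 9 Th17 and CD4 markers all were present, with summed levels of 2200.8 to 3415.6 CPM in KO acetate, 1915.1 to 2709.7 in WT acetate, 1286.6 to 1519.0 in KO untreated and 1463.9 to 1852.7 in WT untreated libraries. Of the 5 CD8 T and NK cell markers 3 were tested, with summed levels of 17.6 to 23.1, 19.7 to 21.9, 8.94 to 14.4 and 13.6 to 15.8 CPM in KO acetate, WT acetate, KO untreated and WT untreated libraries. Of these 3, Cd8a and Cd8b1 were lower in untreated KO cells, Cd8a not without KO untreated 1 or 3 or WT untreated 3 or 4 (-0.97 to -0.74, adjusted p = 0.0577 to 0.11), and both were higher with acetate in KO cells. The sums of both marker lists were higher in every acetate library than in any untreated one, and their part in the results was not tested. Most of the Th17 sum under acetate was Il17a (868 ± 258 CPM in KO acetate, 485 ± 154 in WT acetate, 137 ± 27.7 in KO untreated and 135 ± 44.4 in WT untreated libraries) and Il17f (1117 ± 254, 952 ± 234, 419 ± 88.7 and 505 ± 109 CPM in the same order). The list did not move as one. With acetate in KO cells 5 of the 9 rose, among them Il17a, Il17f and Il23r, and Cd3d and Cd3e fell. With acetate in WT cells Il17a and Il17f rose and Cd3d and Cd3e fell. In untreated KO cells Ccr6 was higher and Cd3d, Cd4 and Il23r were lower. The 5 B cell markers summed to at most 5.64 CPM and none was called in a comparison. The 2 tested of 5 myeloid markers summed to at most 3.44 CPM, and the one call was Itgam in KO acetate against WT untreated cells (0.81, adjusted p = 0.0411), lost without KO acetate 1 or 3 or WT untreated 1, 3 or 4 (0.63 to 0.85, adjusted p = 0.0592 to 0.15).

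**Figure D2:**
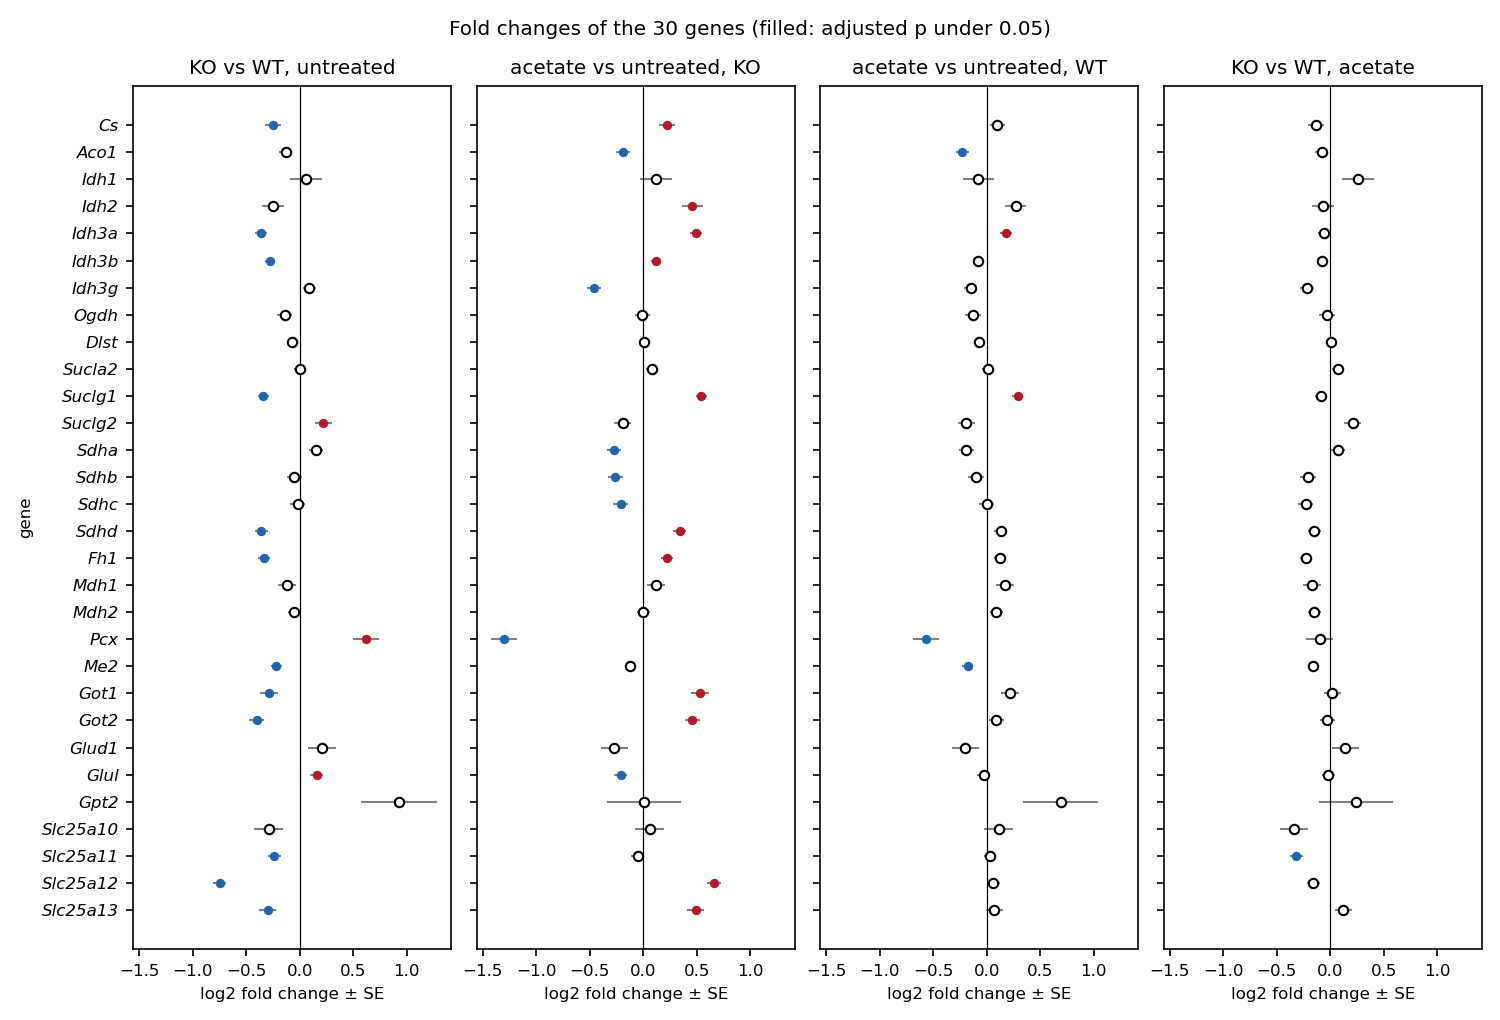
Log2 fold change (dot) and SE (line) of the 30 genes in 4 comparisons, edgeR's fit of 16 libraries. Filled dots passed an adjusted p of 0.05, red where higher and blue where lower. The first panel holds 12 blue dots and the second 11 red ones, and the last holds 1 filled dot, Slc25a11.

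Of the 19 genes of the cycle, 1 was higher and 6 were lower in untreated KO cells, and 7 rose and 5 fell with acetate in KO cells (7 and 1 under library totals). The share called in untreated KO cells, 36.8%, was near the 36.6% of all genes. Split by direction, 31.6% were lower, against 18.6% of all genes, and 5.3% higher, against 18.0%. With acetate in KO cells 36.8% rose and 26.3% fell, against 22.1% and 21.6% of all genes. The cycle begins with citrate synthase. Cs averaged 351 ± 33.0 CPM in KO acetate, 383 ± 29.9 in WT acetate, 301 ± 20.5 in KO untreated and 358 ± 15.2 in WT untreated libraries (SD, n = 4 each). It was lower in untreated KO than in untreated WT cells, without overlap of the libraries (log2 fold change -0.25, SE 0.0742, adjusted p = 0.0122, edgeR), and higher with acetate in KO cells (0.22, adjusted p = 0.0198). The second call was lost when KO acetate 2 or KO untreated 1 was left out (0.16 and adjusted p = 0.0862 at the weakest), and without the 4 high-share libraries neither comparison was called (-0.22, adjusted p = 0.0779 for KO against WT, and 0.10, adjusted p = 0.374 for acetate in KO).

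Aco1, the cytosolic aconitase that also serves as an iron-sensing mRNA-binding protein, was lower with acetate in both genotypes. It stood at 48.8, 50.1, 51.2 and 49.4 CPM in KO acetate, 53.5, 51.1, 50.2 and 56.6 in WT acetate, 58.6, 50.1, 56.4 and 61.9 in KO untreated and 62.6, 60.8, 62.6 and 62.6 in WT untreated libraries. The WT untreated libraries were nearly equal, KO untreated 4 lay among them, and every WT acetate library lay below them, whereas KO untreated 2 lay among the KO acetate libraries. The log2 fold change with acetate was -0.23 in WT cells (SE 0.0612, adjusted p = 0.0141, edgeR) and -0.19 in KO cells (SE 0.0615, adjusted p = 0.0192), and the interaction was 0.05 with an SE of 0.0867. Set against WT untreated cells, KO acetate cells had -0.32 (adjusted p = 0.00104). The call in KO cells ended in a fit of the KO groups alone (-0.18, adjusted p = 0.055). It also ended without KO untreated 4 (-0.15, adjusted p = 0.0608), which gave a call for KO against WT without acetate (-0.17, adjusted p = 0.0373). Scaling by library totals ended both acetate calls (-0.19, adjusted p = 0.111 in WT; -0.08, adjusted p = 0.409 in KO).

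The NAD-dependent isocitrate dehydrogenase is built of subunits encoded by Idh3a (catalytic), Idh3b and Idh3g (regulatory), and its subunit genes differed in how they changed. Idh3a had 158, 159, 163 and 168 CPM in KO acetate, 156, 164, 171 and 182 in WT acetate, 119, 108, 114 and 122 in KO untreated and 148, 145, 148 and 153 in WT untreated libraries. All 4 KO untreated libraries lay below the other 12. The WT untreated ones lay below both acetate groups. Idh3a was lower in untreated KO cells (-0.36, SE 0.0549, adjusted p = 6.23e-05, edgeR) and higher with acetate in KO cells (0.49, SE 0.055, adjusted p = 1.14e-06). Acetate in WT cells gave 0.18 (adjusted p = 0.0296), a call lost when WT acetate 3, WT acetate 4, WT untreated 1, WT untreated 2 or WT untreated 3 was left out (adjusted p = 0.0604 to 0.109) and without the 4 high-share libraries (adjusted p = 0.101). The acetate change was larger in KO than in WT cells (interaction 0.31, SE 0.0775, adjusted p = 0.0154), and without the 4 high-share libraries this was 0.29 with an adjusted p of 0.0931.

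Idh3b had 111, 109, 110 and 109 CPM in KO acetate, 110, 117, 115 and 121 in WT acetate, 97.5, 104, 97.3 and 104 in KO untreated and 127, 123, 118 and 121 in WT untreated libraries. Libraries of KO untreated were the lowest, the KO acetate ones were close to each other, and the WT untreated ones all lay above both KO groups. Idh3b was 0.28 log2 units lower in untreated KO cells (SE 0.0479, adjusted p = 0.000208, edgeR). KO acetate cells remained below WT untreated cells (-0.16, adjusted p = 0.0218), a call lost without WT untreated 1 (-0.14, adjusted p = 0.0604) or WT untreated 2 (-0.16, adjusted p = 0.0514), without the 4 high-share libraries (-0.14, adjusted p = 0.0994) and under library totals (-0.11, adjusted p = 0.256). The rise with acetate in KO cells (0.12, adjusted p = 0.0477) was at the threshold and was lost with each of 15 of the 16 libraries left out, all but WT acetate 1 (adjusted p = 0.0508 to 0.165). It was also lost under RLE scaling, with no filter, without the 4 high-share libraries and with the KO groups alone (0.11 to 0.12, adjusted p = 0.0561 to 0.202).

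Idh3g went the other way with acetate. It had 63.4, 75.4, 67.3 and 70.7 CPM in KO acetate, 78.3, 83.9, 79.1 and 81.5 in WT acetate, 87.9, 101, 89.9 and 103 in KO untreated and 86.2, 93.1, 91.3 and 88.8 in WT untreated libraries. The KO acetate libraries were lower than those of every other group, and the KO untreated libraries overlapped those of WT untreated. Acetate lowered Idh3g in KO cells (-0.46, SE 0.0634, adjusted p = 1.11e-05, edgeR), and KO acetate lay below WT untreated (-0.38, adjusted p = 0.000341). Acetate in WT cells was not called, although every WT acetate library lay below every WT untreated one. KO against WT without acetate was not called (0.09, SE 0.063, adjusted p = 0.309). Under acetate KO against WT was -0.22 with an adjusted p of 0.0824, which became -0.27 with an adjusted p of 0.0303 when KO acetate 2 was left out. The interaction (-0.31, SE 0.0893, adjusted p = 0.0314) was lost with any of 9 libraries left out, KO acetate 1 and 3, WT acetate 2 and 4, KO untreated 2 and 4 and WT untreated 1, 3 and 4 (-0.31 to -0.27, adjusted p = 0.0524 to 0.0662), under library totals (-0.25, adjusted p = 0.147) and without the 4 high-share libraries (-0.34, adjusted p = 0.0517).

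The NADP-dependent isocitrate dehydrogenases are encoded by Idh1 in the cytosol and Idh2 in the mitochondrion. Idh2 averaged 84.2 ± 8.59 CPM in KO acetate, 88.1 ± 9.76 in WT acetate, 61.3 ± 8.34 in KO untreated and 72.9 ± 6.48 in WT untreated libraries (SD, n = 4 each). It rose with acetate in KO cells without overlap (0.46, SE 0.101, adjusted p = 0.00128, edgeR). Acetate in WT cells gave 0.27 with the same SE and an adjusted p of 0.0756, below 0.05 without WT acetate 3 or KO untreated 1 (0.0429 to 0.0481), and the interaction, 0.18 with an SE of 0.143, was not called. Untreated KO cells gave -0.25 (adjusted p = 0.0615), which was called without WT acetate 2, KO untreated 2 or WT untreated 1 (-0.32 to -0.25, adjusted p = 0.0217 to 0.0469). Idh1, at 28.5 ± 3.94, 23.8 ± 5.12, 26.2 ± 2.28 and 25.2 ± 4.21 CPM in KO acetate, WT acetate, KO untreated and WT untreated libraries, was called nowhere. The 2-oxoglutarate dehydrogenase genes Ogdh (222 ± 17.7, 226 ± 7.42, 224 ± 17.9 and 247 ± 19.1 CPM in KO acetate, WT acetate, KO untreated and WT untreated libraries) and Dlst (141 ± 3.33, 141 ± 3.74, 140 ± 6.85 and 147 ± 7.17 CPM) were called in no comparison, with log2 fold changes between -0.16 and 0.01.

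Succinyl-CoA ligase pairs the alpha subunit of Suclg1 with the beta subunit of Sucla2 (ATP-forming) or Suclg2 (GTP-forming). Suclg1 had 101, 94.2, 99.1 and 99.7 CPM in KO acetate, 108, 109, 99.3 and 104 in WT acetate, 72.3, 63.8, 66.6 and 69.0 in KO untreated and 85.1, 83.9, 86.8 and 87.5 in WT untreated libraries. KO untreated was the lowest group, WT untreated lay between, and both acetate groups lay above and overlapped each other. Untreated KO cells had 1.26-fold less than untreated WT cells (-0.34, SE 0.0513, adjusted p = 6.19e-05, edgeR). Acetate raised it in KO cells 1.45-fold (0.54, SE 0.0514, adjusted p = 1.75e-07) and in WT cells 1.22-fold (0.29, SE 0.051, adjusted p = 0.000853), and KO acetate exceeded WT untreated (0.20, adjusted p = 0.00801).

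The interaction of Suclg1 was 0.25 (SE 0.0723, adjusted p = 0.0326). It was lost with any of 9 libraries left out, KO acetate 1 and 3, WT acetate 3 and 4, KO untreated 2 and 3 and WT untreated 1, 3 and 4 (0.21 to 0.24, adjusted p = 0.051 to 0.0768), under library totals (0.31, adjusted p = 0.0518) and without the 4 high-share libraries (0.27, adjusted p = 0.0645). Suclg2 averaged 68.6 ± 5.95 CPM in KO acetate, 59.2 ± 5.86 in WT acetate, 78.3 ± 3.92 in KO untreated and 67.4 ± 5.52 in WT untreated libraries, and was higher in untreated KO cells (0.22, SE 0.0791, adjusted p = 0.04). That call was lost without KO acetate 3, KO untreated 2, KO untreated 3, WT untreated 1 or WT untreated 3 (0.16 to 0.21, adjusted p = 0.051 to 0.126), under library totals (adjusted p = 0.23) and without the 4 high-share libraries (adjusted p = 0.307). Sucla2 had group means of 75.4 ± 4.38, 71.7 ± 1.52, 71.6 ± 3.29 and 71.4 ± 3.96 CPM in KO acetate, WT acetate, KO untreated and WT untreated libraries and was called nowhere.

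Succinate dehydrogenase, which is also complex II of the respiratory chain, has a flavoprotein (Sdha), an iron-sulfur protein (Sdhb) and membrane anchors (Sdhc and Sdhd). Sdhd had 99.9, 115, 112 and 123 CPM in KO acetate, 120, 122, 126 and 133 in WT acetate, 90.3, 84.3, 86.7 and 94.8 in KO untreated and 117, 110, 115 and 115 in WT untreated libraries. Every KO untreated library was below every library of the other groups. Sdhd was 0.36 log2 units lower in untreated KO cells (SE 0.0612, adjusted p = 0.000181, edgeR) and rose by 0.34 with acetate in KO cells (SE 0.0612, adjusted p = 0.000185). Its interaction was 0.21 with an SE of 0.0863 (adjusted p = 0.131; 0.26 and 0.043 without KO acetate 1).

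Sdhb had 81.2, 102, 84.1 and 97.9 CPM in KO acetate, 106, 107, 104 and 106 in WT acetate, 118, 103, 99.8 and 117 in KO untreated and 119, 111, 114 and 109 in WT untreated libraries. KO acetate 2 and 4 were closer to the other groups than KO acetate 1 and 3 were. Acetate in KO cells lowered Sdhb (-0.26, SE 0.072, adjusted p = 0.00636, edgeR), Sdha (-0.27, adjusted p = 0.00264) and Sdhc (-0.21, adjusted p = 0.0235), and none of these was called in untreated KO against WT cells. Sdhb was also lower in KO acetate than in WT untreated cells (-0.31, adjusted p = 0.00403). With acetate in WT cells none of Sdha, Sdhb and Sdhc was called with all libraries. Every WT acetate library still lay below every WT untreated one for Sdhb and for Sdha (251 to 268 against 281 to 305 CPM), but not for Sdhc. Sdha was called lower with acetate in WT cells without KO acetate 4, KO untreated 1 or KO untreated 2 (-0.19, adjusted p = 0.0363 to 0.0442, edgeR). Under library totals the falls in KO cells were -0.17 for Sdha (adjusted p = 0.133), -0.16 for Sdhb (adjusted p = 0.0579) and -0.11 for Sdhc (adjusted p = 0.239), and all ended as calls. Sdhc also lost its call without KO acetate 1 (-0.13, adjusted p = 0.0914), KO acetate 3 (-0.19, adjusted p = 0.0712) or KO untreated 1 (-0.21, adjusted p = 0.0501), and with the KO groups alone (-0.21, adjusted p = 0.0705). Sdhc was lower in KO acetate than in WT untreated cells (-0.23, adjusted p = 0.0261), a call lost without KO acetate 1 or 3 or WT untreated 3 (-0.21 to -0.15, adjusted p = 0.072 to 0.0878), under library totals (-0.19, adjusted p = 0.0738) and with these 2 groups alone (-0.23, adjusted p = 0.0513). Sdha was called higher in untreated KO cells without KO untreated 1 (0.20, adjusted p = 0.0218).

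Fh1, the fumarase gene, had 77.7, 87.7, 86.0 and 89.3 CPM in KO acetate, 95.9, 103, 100 and 99.9 in WT acetate, 67.1, 75.6, 75.6 and 74.5 in KO untreated and 87.1, 93.3, 93.7 and 93.3 in WT untreated libraries. Each of the 4 simple comparisons was without overlap, with both KO groups below their WT groups. Fh1 was lower in untreated KO cells (-0.33, SE 0.0565, adjusted p = 0.000206, edgeR) and higher with acetate in KO cells (0.22, SE 0.0566, adjusted p = 0.00411), where the second call was lost without the 4 high-share libraries (0.16, adjusted p = 0.101). KO against WT under acetate, -0.23 with an adjusted p of 0.0547, was called without KO acetate 2 or KO acetate 4 (-0.25 in both, adjusted p = 0.0364 to 0.0378). The malate dehydrogenases Mdh1 (cytosolic; 187 ± 21.9, 210 ± 26.0, 172 ± 9.27 and 187 ± 11.6 CPM in KO acetate, WT acetate, KO untreated and WT untreated libraries) and Mdh2 (mitochondrial; 279 ± 12.4, 310 ± 7.44, 280 ± 22.6 and 291 ± 12.8 CPM) were called in no comparison.

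Of the 2 genes of enzymes that join the cycle and pyruvate, Pcx was higher and Me2 lower in untreated KO than in untreated WT cells. Pcx encodes pyruvate carboxylase, which makes oxaloacetate from pyruvate without pyruvate dehydrogenase. It had 10.1, 11.6, 8.90 and 8.09 CPM in KO acetate, 12.9, 10.5, 9.47 and 8.60 in WT acetate, 24.4, 22.7, 24.4 and 23.7 in KO untreated and 17.8, 14.8, 14.9 and 14.2 in WT untreated libraries. KO untreated was the highest group and WT untreated the next, and the acetate groups were lower and overlapped each other. Untreated KO cells had 1.54-fold more Pcx than untreated WT cells (0.62, SE 0.118, adjusted p = 0.000487, edgeR).

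Acetate lowered Pcx in both genotypes, 2.46-fold in KO cells (-1.30, SE 0.122, adjusted p = 1.38e-07, edgeR) and 1.49-fold in WT cells (-0.57, SE 0.121, adjusted p = 0.00347). The fall was larger in KO cells (interaction -0.73, SE 0.171, adjusted p = 0.0096). KO acetate cells ended below WT untreated cells (-0.68, adjusted p = 0.000605), and KO and WT under acetate gave -0.10 with an SE of 0.123 (adjusted p = 0.698). Pcx was 1 of the 2 genes whose interaction was kept under every alternative, Slc25a12 being the other.

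Me2, the mitochondrial NAD-dependent malic enzyme that turns malate into pyruvate, had 131, 127, 136 and 137 CPM in KO acetate, 140, 142, 156 and 156 in WT acetate, 150, 139, 143 and 148 in KO untreated and 167, 170, 167 and 172 in WT untreated libraries. Each KO group lay below its WT group and each acetate group below its untreated group, without overlap in any of these 4 comparisons. The log2 fold change was -0.22 in untreated KO against WT cells (SE 0.051, adjusted p = 0.00224, edgeR) and -0.35 in KO acetate against WT untreated cells (adjusted p = 0.000104). Acetate gave -0.18 in WT cells (adjusted p = 0.0199) and -0.12 in KO cells (adjusted p = 0.0563; -0.15 and 0.0378 without KO untreated 2), with an interaction of 0.06 (SE 0.0721). The call in WT cells was lost without WT acetate 1, WT acetate 2, WT untreated 2 or WT untreated 4 (-0.18 to -0.16, adjusted p = 0.0501 to 0.0791) and under library totals (-0.14, adjusted p = 0.208).

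The malate-aspartate shuttle moves malate inward against 2-oxoglutarate (Slc25a11) and aspartate outward against glutamate (Slc25a12 and Slc25a13), with a malate dehydrogenase and an aspartate transaminase on each side (Mdh1 and Got1 in the cytosol, Mdh2 and Got2 in the mitochondrion). Of these 7 genes, 5 were lower in untreated KO than in untreated WT cells and none was higher, and 4 rose and none fell with acetate in KO cells. The share lower was 71.4%, against 18.6% of all genes, and the share that rose 57.1%, against 22.1%. These shares were not tested. With acetate in WT cells edgeR called 0 of the 7, with 1 at an unadjusted p under 0.05, DESeq2 called 0, and Got1 was called without WT acetate 3 (0.28, adjusted p = 0.0278). The median log2 fold change of the 7 genes was -0.29 in untreated KO cells and 0.46 with acetate in KO cells. The medians of all genes were 0.014 and -0.009. Leaving out any 1 library still gave 5 and 4 calls, and leaving out the 4 high-share libraries gave 3 and 4. The interaction was positive and called for 3 of the 7, Slc25a12, Slc25a13 and Got2, and for 1 without the 4 high-share libraries. With all libraries it was called for 11.9% of all genes.

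These calls share the KO untreated libraries, and whether the genes called in both move together was not tested. Shown are the regions around the starts of the 4 shuttle genes called lower in untreated KO cells and higher with acetate in KO cells. Each holds 250 bases before and 50 from the gene's start, from RefSeq on build GRCm38.p6, written 5′ to 3′ on the gene's strand in lower case, with matches to 5 motifs in capitals.
Slc25a12, chr2:71367706-71368005, minus strand: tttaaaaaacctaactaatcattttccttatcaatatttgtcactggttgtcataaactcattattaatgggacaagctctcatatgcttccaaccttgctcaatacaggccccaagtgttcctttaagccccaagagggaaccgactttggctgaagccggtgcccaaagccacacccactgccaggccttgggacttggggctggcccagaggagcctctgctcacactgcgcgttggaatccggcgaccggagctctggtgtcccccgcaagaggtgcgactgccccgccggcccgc
Slc25a13, chr6:6217124-6217423, minus strand: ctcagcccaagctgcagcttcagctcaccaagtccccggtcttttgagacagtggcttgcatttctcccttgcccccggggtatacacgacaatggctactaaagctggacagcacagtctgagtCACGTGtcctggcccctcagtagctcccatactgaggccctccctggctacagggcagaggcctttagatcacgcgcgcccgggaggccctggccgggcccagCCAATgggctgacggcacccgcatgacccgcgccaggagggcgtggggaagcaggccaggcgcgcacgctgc
Got1, chr19:43524556-43524855, minus strand: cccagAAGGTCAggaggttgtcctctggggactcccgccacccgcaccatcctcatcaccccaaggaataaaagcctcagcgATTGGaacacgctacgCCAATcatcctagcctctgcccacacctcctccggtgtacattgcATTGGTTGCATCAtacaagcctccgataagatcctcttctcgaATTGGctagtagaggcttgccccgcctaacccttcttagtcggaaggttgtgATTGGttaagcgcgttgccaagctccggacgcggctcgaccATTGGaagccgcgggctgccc
Got2, chr8:95888352-95888651, minus strand: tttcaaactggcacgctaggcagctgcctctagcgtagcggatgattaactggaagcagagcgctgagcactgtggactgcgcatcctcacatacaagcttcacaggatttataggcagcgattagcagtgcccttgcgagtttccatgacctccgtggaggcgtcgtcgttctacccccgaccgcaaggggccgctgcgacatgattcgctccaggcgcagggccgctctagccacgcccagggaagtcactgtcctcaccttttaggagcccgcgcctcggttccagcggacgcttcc
The motifs were searched on both strands and do not contain one another: the oestrogen-related receptor (ERR) motif AAGGTCA, the NRF1 core GCATGCG, the E box CACGTG, the CCAAT box CCAAT and the amino acid response element TGATGNAA. Slc25a13 held an E box with its first base at -125 and a CCAAT box at -22. Got1 held an ERR motif at -245, CCAAT boxes at -168, -152, -107, -64, -12 and 29 on either strand, and an amino acid response element at -102, next to the CCAAT box at -107. Slc25a12 and Got2 held none of these letters in the window, and the 4 windows had no motif in common.

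Over all 32851 promoter windows, from 27025 genes, 4.72% held the ERR motif, 3.58% the NRF1 core, 7.15% the E box, 37.4% the CCAAT box and 3.97% the amino acid response element. Windows were available for 27 of the 30 genes, 34 in all. Of the 34 windows 6 belong to Ogdh, some overlapping. They make up 3 of the 5 windows with an E box and 2 of the 4 with an NRF1 core, so shares are given per gene. Counting per gene does not remove this, as a gene with 6 windows has more chances of a match than one with fewer. Ogdh is among the matching genes for every motif but the amino acid response element. A window with the ERR motif was found for 11.1% of the 27 genes (Got1, Ogdh and Sdhd) and 5.38% of all genes, and one with the NRF1 core for 11.1% (Glud1, Ogdh and Sdhb) and 4.01%. The E box was found for 11.1% (Ogdh, Pcx and Slc25a13) and 8.09%, the CCAAT box for 59.3% and 41.1%, and the amino acid response element for 3.7% (Got1) and 4.51%. These are matches of letters and not sites of binding, and the shares were not tested.

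Slc25a12 had the largest change of the 4 carriers in untreated KO cells. It had 87.8, 96.0, 91.1 and 85.3 CPM in KO acetate, 104, 102, 98.4 and 98.0 in WT acetate, 51.3, 59.3, 54.1 and 64.0 in KO untreated and 95.2, 97.1, 96.0 and 97.4 in WT untreated libraries. All KO untreated libraries lay far below the others, and the KO acetate libraries lay near those of WT untreated and overlapped them. Untreated KO cells had 1.69-fold less Slc25a12 than untreated WT cells (-0.75, SE 0.0626, adjusted p = 1.29e-07, edgeR), and acetate raised it 1.57-fold in KO cells (0.66, SE 0.0626, adjusted p = 1.71e-07).

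In WT cells the acetate change of Slc25a12 was 0.06 (SE 0.0619, adjusted p = 0.567, edgeR), and the interaction was 0.59 (SE 0.0879, adjusted p = 0.000339). KO acetate against WT untreated cells gave -0.10 (SE 0.062, adjusted p = 0.255), and KO against WT under acetate gave -0.16 (adjusted p = 0.173), although the 4 KO libraries all lay below the 4 WT ones there.

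Slc25a13 had 38.4, 37.0, 41.0 and 39.0 CPM in KO acetate, 34.1, 34, 37.4 and 37.8 in WT acetate, 25.8, 24.5, 27.1 and 33.3 in KO untreated and 35.6, 33.1, 34.9 and 32.5 in WT untreated libraries. KO untreated 4 lay among the WT untreated libraries and the other 3 KO untreated libraries lay below them. Slc25a13 was 0.30 log2 units lower in untreated KO cells (SE 0.0804, adjusted p = 0.00687, edgeR), and without the 4 high-share libraries, which leaves KO untreated 3 and 4, this was -0.16 (adjusted p = 0.254). Acetate raised it in KO cells (0.49, SE 0.0805, adjusted p = 7.15e-05). The interaction (0.42, SE 0.113, adjusted p = 0.022) was lost without KO acetate 3, KO untreated 2 or KO untreated 3 (0.35 to 0.40, adjusted p = 0.0519 to 0.0529) and without the 4 high-share libraries (0.29, adjusted p = 0.157).

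Slc25a11, the 2-oxoglutarate-malate carrier, differed between the genotypes with and without acetate. It had 53.5, 58.9, 55.0 and 57.9 CPM in KO acetate, 74.2, 72.0, 67.7 and 67.7 in WT acetate, 59.1, 56.9, 56.1 and 61.4 in KO untreated and 75.3, 70.4, 64.1 and 65.7 in WT untreated libraries. All 8 KO libraries lay below all 8 WT libraries. KO against WT was -0.32 under acetate (SE 0.0605, adjusted p = 0.0214, edgeR) and -0.24 without it (SE 0.0605, adjusted p = 0.00474), and KO acetate against WT untreated was -0.29 (adjusted p = 0.00193).

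Acetate did not change Slc25a11 past the threshold in KO cells (-0.05, SE 0.0607, adjusted p = 0.531) or in WT cells (0.03, SE 0.0602, adjusted p = 0.782, edgeR). Its call under acetate was lost without KO acetate 1 (-0.30, adjusted p = 0.0833) or KO acetate 3 (-0.31, adjusted p = 0.072) and in a fit of the acetate groups alone (-0.32, adjusted p = 0.0939), and its call without acetate was lost without the 4 high-share libraries (-0.19, adjusted p = 0.0941). The number of the 30 genes called between KO and WT under acetate, 1, was 0 without KO acetate 1 or KO acetate 3. It was 5 without KO acetate 2 (with Idh3g, Fh1, Sdhb at -0.28 and an adjusted p of 0.0405, and Sdhc at -0.31 and 0.0202) and 2 without KO acetate 4 (with Fh1). The dicarboxylate carrier Slc25a10, at 17.8 ± 3.57, 22.5 ± 2.42, 17.1 ± 1.78 and 20.9 ± 2.85 CPM in KO acetate, WT acetate, KO untreated and WT untreated libraries, was called nowhere, but was called lower in untreated KO cells without KO acetate 1 (-0.30, adjusted p = 0.0322).

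**Figure D3:**
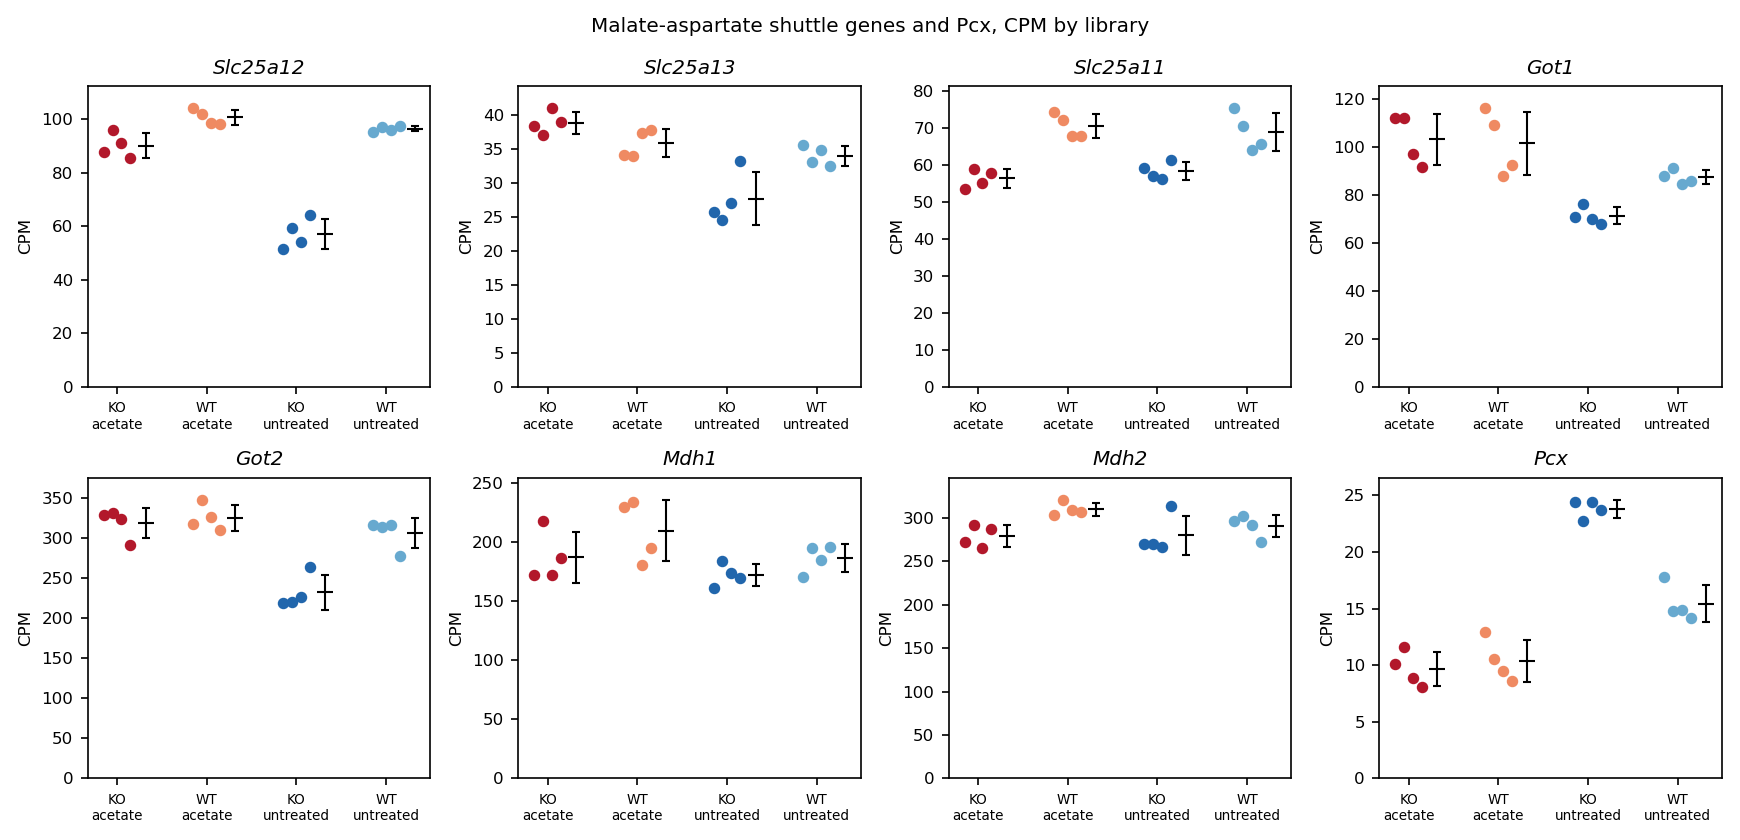
CPM of the 7 malate-aspartate shuttle genes and of Pcx in each library (dots, in replicate order), with the group mean and SD at the right of each group. The KO untreated libraries of Slc25a12 sit between 51.3 and 64.0, below all others, and those of Pcx sit between 22.7 and 24.4, above all others.

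The mitochondrial aspartate transaminase gene Got2 had 329, 331, 324 and 291 CPM in KO acetate, 318, 348, 326 and 310 in WT acetate, 219, 220, 226 and 264 in KO untreated and 316, 314, 317 and 278 in WT untreated libraries. Replicate 4 stood apart from the other 3 in both untreated groups, high in KO and low in WT, and the groups still did not overlap. Got2 was 1.32-fold lower in untreated KO cells (-0.40, SE 0.0703, adjusted p = 0.000244, edgeR) and 1.37-fold higher with acetate in KO cells (0.46, SE 0.0704, adjusted p = 3.72e-05). The interaction was 0.37 (SE 0.0993, adjusted p = 0.0208), and 0.26 with an adjusted p of 0.195 without the 4 high-share libraries.

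Got1, its cytosolic counterpart, averaged 103 ± 10.4 CPM in KO acetate, 101 ± 13.3 in WT acetate, 71.2 ± 3.57 in KO untreated and 87.3 ± 2.86 in WT untreated libraries (SD, n = 4 each). In both acetate groups replicates 1 and 2 were higher than 3 and 4, at 112 and 112 against 97.0 and 91.4 CPM in KO acetate, and 116 and 109 against 88.0 and 92.4 CPM in WT acetate. Got1 was lower in untreated KO cells (-0.29, SE 0.0833, adjusted p = 0.0099, edgeR) and higher with acetate in KO cells (0.53, SE 0.0834, adjusted p = 4.62e-05). KO acetate exceeded WT untreated (0.24, adjusted p = 0.0409), a call lost without KO acetate 1 or 2, KO untreated 3 or any WT untreated library (0.19 to 0.26, adjusted p = 0.0525 to 0.133). Without the 4 high-share libraries it was lost too (0.19, adjusted p = 0.2). The interaction, 0.32 with an SE of 0.117, was not called (adjusted p = 0.0866), and was called without KO acetate 4 or WT acetate 1 (0.37 to 0.39, adjusted p = 0.0354 to 0.0408).

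Glul, which makes glutamine from glutamate and ammonia, averaged 74.8 ± 3.83 CPM in KO acetate, 75.6 ± 3.75 in WT acetate, 86.3 ± 4.46 in KO untreated and 77.4 ± 4.70 in WT untreated libraries. It was higher in untreated KO cells by 0.16 (SE 0.0601, adjusted p = 0.0469, edgeR), a call at the threshold that was lost with any of 9 libraries left out, KO acetate 3, WT acetate 1, 3 and 4, KO untreated 2 and 3 and WT untreated 1, 3 and 4 (0.13 to 0.16, adjusted p = 0.0543 to 0.133), under library totals (0.10, adjusted p = 0.351), without the 4 high-share libraries (0.16, adjusted p = 0.178) and with the untreated groups alone (0.16, adjusted p = 0.0506). It fell by 0.21 with acetate in KO cells (adjusted p = 0.00895), and under library totals by 0.11 with an adjusted p of 0.308. Glud1, which converts glutamate to 2-oxoglutarate, averaged 237 ± 38.0 CPM in KO acetate, 215 ± 44.0 in WT acetate, 285 ± 21.9 in KO untreated and 247 ± 18.0 in WT untreated libraries, and was not called (0.21, SE 0.128, adjusted p = 0.225 in untreated KO; -0.27, SE 0.128, adjusted p = 0.104 with acetate in KO, and -0.35 with 0.0461 without KO acetate 2).

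Gpt2, the mitochondrial alanine transaminase, had the largest log2 fold change among the 30 in untreated KO cells and the widest spread. It averaged 20 ± 6.99 CPM in KO acetate, 16.9 ± 9.15 in WT acetate, 19.9 ± 4.16 in KO untreated and 10.5 ± 0.480 in WT untreated libraries. The KO untreated libraries, 14.6 to 24.8 CPM, all lay above the WT untreated ones, 10.0 to 11.0 CPM, while WT acetate ran from 7.28 to 28.2 CPM. KO against WT without acetate was 0.93 (SE 0.353) and was not called (adjusted p = 0.0556, edgeR), with an adjusted p of 0.019 to 0.0457 without KO acetate 1, WT acetate 1, WT acetate 3 or KO untreated 4. KO acetate against WT untreated was 0.94 (adjusted p = 0.0681), called without KO acetate 4, WT acetate 1 or WT acetate 3 (0.93 to 1.10, adjusted p = 0.0248 to 0.0427). As for Got1, replicates 1 and 2 were higher than 3 and 4 in both acetate groups. Cs, Idh1, Dlst, Pcx and Glud1 had the same order in both acetate groups. Idh3a, Me2, Slc25a10 and Slc25a13 had the reverse order in both. The labels name no batch, and the cause was not tested.

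Subunit genes of one enzyme changed unequally, which can be seen within each library without any scaling. The log2 ratio of Suclg2 to Suclg1 counts averaged -0.53 ± 0.126 in KO acetate, -0.83 ± 0.116 in WT acetate, 0.20 ± 0.142 in KO untreated and -0.35 ± 0.123 in WT untreated libraries (SD, n = 4 each). The ratio of Idh3g to Idh3a averaged -1.23 ± 0.107 in KO acetate, -1.06 ± 0.093 in WT acetate, -0.28 ± 0.144 in KO untreated and -0.72 ± 0.072 in WT untreated libraries. Both ratios were highest in the KO untreated libraries, which did not overlap any other group. That of Sdhb to Sdhd averaged -0.31 ± 0.101 in KO acetate, -0.24 ± 0.076 in WT acetate, 0.30 ± 0.073 in KO untreated and -0.01 ± 0.040 in WT untreated libraries, with overlap only between the acetate groups. The ratio of Slc25a12 to Slc25a13, alternative carriers of the same exchange, averaged 1.21 ± 0.113 in KO acetate, 1.49 ± 0.124 in WT acetate, 1.05 ± 0.151 in KO untreated and 1.5 ± 0.077 in WT untreated libraries. These pairs were chosen after the values were seen and were not tested, and since counts were not divided by transcript length, only the differences between groups can be read and not the sign of a ratio.

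**Figure D4:**
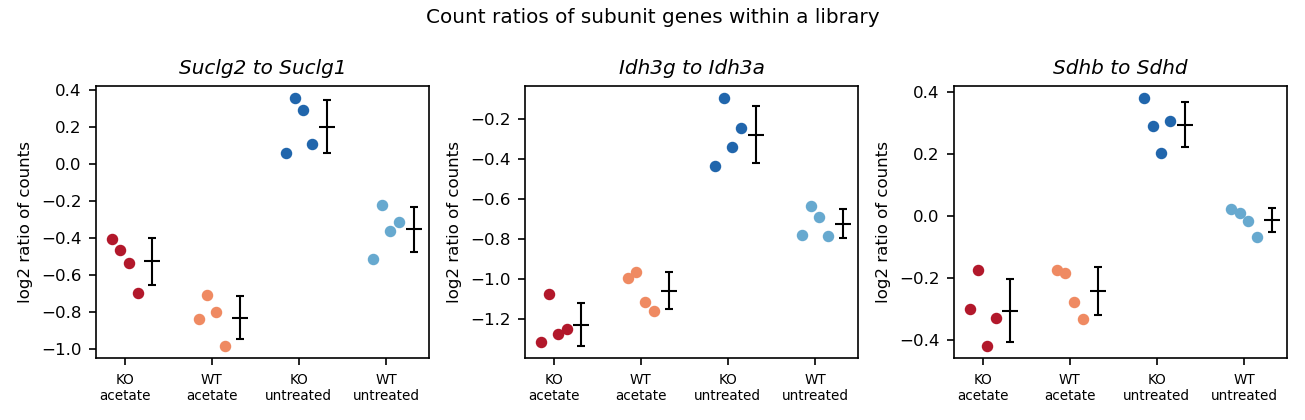
Log2 ratio of the counts of subunit genes within each library (dots, in replicate order), with the group mean and SD at the right of each group. The KO untreated libraries are the highest in all 3 panels, and the acetate libraries of both genotypes lie below the WT untreated mean.

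Beside the 30 genes, a list of 43 other genes of the pathway was drawn up, of which 37 were tested; Me1, Me3, Pck1, Slc38a5, Slc25a18 and Slc25a21 were not analysed here. In untreated KO cells 11 of the 37 were higher and 3 lower, and with acetate in KO cells 4 rose and 14 fell. The first split was 5 and 2 without the 4 high-share libraries. With acetate in WT cells 2 rose and 5 fell, and 4 were called without WT untreated 2. KO acetate against WT untreated gave 5 higher and 5 lower, in all 6 without WT untreated 2, and the interaction gave 1 positive and 5 negative, in all 3 without KO acetate 3 or without the high-share libraries. Between KO and WT under acetate edgeR called 0 of the 37, with 4 at an unadjusted p under 0.05, and DESeq2 called 1. The called shares in untreated KO and with acetate in KO cells, 37.8% and 48.6%, lay near the 36.6% and 43.7% of all genes. Under library totals the splits were 8 higher and 3 lower in untreated KO cells, 6 and 7 with acetate in KO, 2 and 3 with acetate in WT, 5 and 3 in KO acetate against WT untreated, and 1 and 2 in the interaction.

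Ogdhl, a 2-oxoglutarate dehydrogenase-like gene at 0.903 ± 0.188, 0.788 ± 0.221, 1.27 ± 0.17 and 2.12 ± 0.331 CPM in KO acetate, WT acetate, KO untreated and WT untreated libraries, fell by 1.42 with acetate in WT cells (adjusted p = 0.000621).

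D2hgdh, which oxidises D-2-hydroxyglutarate to 2-oxoglutarate, averaged 9.75 ± 1.79 CPM in KO acetate, 9.02 ± 2.17 in WT acetate, 18.9 ± 4.11 in KO untreated and 11.2 ± 0.717 in WT untreated libraries. It was higher in untreated KO cells (0.75, SE 0.171, adjusted p = 0.00245, edgeR) and fell by 0.95 with acetate in KO cells (adjusted p = 0.000237).

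Of the 17 other genes of glutamine and glutamate use 16 were tested, 7 higher and 1 lower in untreated KO cells. These were 43.8% and 6.2% of the 16, against 18.0% and 18.6% of all genes. The split was 3 and 1 without the 4 high-share libraries and 5 and 1 under library totals. Slc38a2, a neutral amino acid transporter, averaged 112 ± 10.0 CPM in KO acetate, 102 ± 11.5 in WT acetate, 173 ± 6.14 in KO untreated and 103 ± 13.5 in WT untreated libraries. It was higher in untreated KO cells (0.75, SE 0.0908, adjusted p = 6.37e-06, edgeR) and fell by 0.62 with acetate in KO cells (adjusted p = 2.13e-05), with an interaction of -0.61 (adjusted p = 0.00481). Aldh4a1, of proline breakdown to glutamate, was higher in untreated KO cells (0.67, adjusted p = 2.91e-05) and fell by 0.91 with acetate in KO cells (adjusted p = 4.22e-07).

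Gls2, a glutaminase that releases glutamate from glutamine, went the opposite way. It averaged 13.8 ± 1.37 CPM in KO acetate, 15.3 ± 1.91 in WT acetate, 6.82 ± 1.09 in KO untreated and 12.9 ± 1.16 in WT untreated libraries. The log2 fold change was -0.92 in untreated KO cells (SE 0.12, adjusted p = 1.3e-05, edgeR) and 1.02 with acetate in KO cells (adjusted p = 2.02e-06), with an interaction of 0.77 (adjusted p = 0.00589).

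Of the 12 other carriers 10 were tested, and 6 fell with acetate in KO cells while none rose (3 fell and none rose under library totals). The 6 were 60.0% of those tested, where 21.6% of all genes fell. Slc25a4, an ADP/ATP carrier with a close paralog in Slc25a5, averaged 271 ± 23.9 CPM in KO acetate, 272 ± 7.48 in WT acetate, 342 ± 14.3 in KO untreated and 274 ± 13.0 in WT untreated libraries, was higher in untreated KO cells (0.32, SE 0.0625, adjusted p = 0.000629, edgeR) and fell by 0.34 with acetate in KO cells (adjusted p = 0.000262). Mpc1, a subunit of the mitochondrial pyruvate carrier, was 0.30 log2 units higher in untreated KO cells (adjusted p = 0.00421). Ucp2, an uncoupling protein homologue, was not called in untreated KO cells (0.04, SE 0.0898, adjusted p = 0.791) and fell by 0.51 with acetate in KO cells (adjusted p = 0.000139). Pck2, which makes phosphoenolpyruvate from oxaloacetate in the mitochondrion, was 1.07 log2 units higher in untreated KO cells (SE 0.373, adjusted p = 0.0401), a call lost without KO untreated 1, 2 or 3 or any WT untreated library (0.87 to 1.13, adjusted p = 0.0558 to 0.114).

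**Figure D5:**
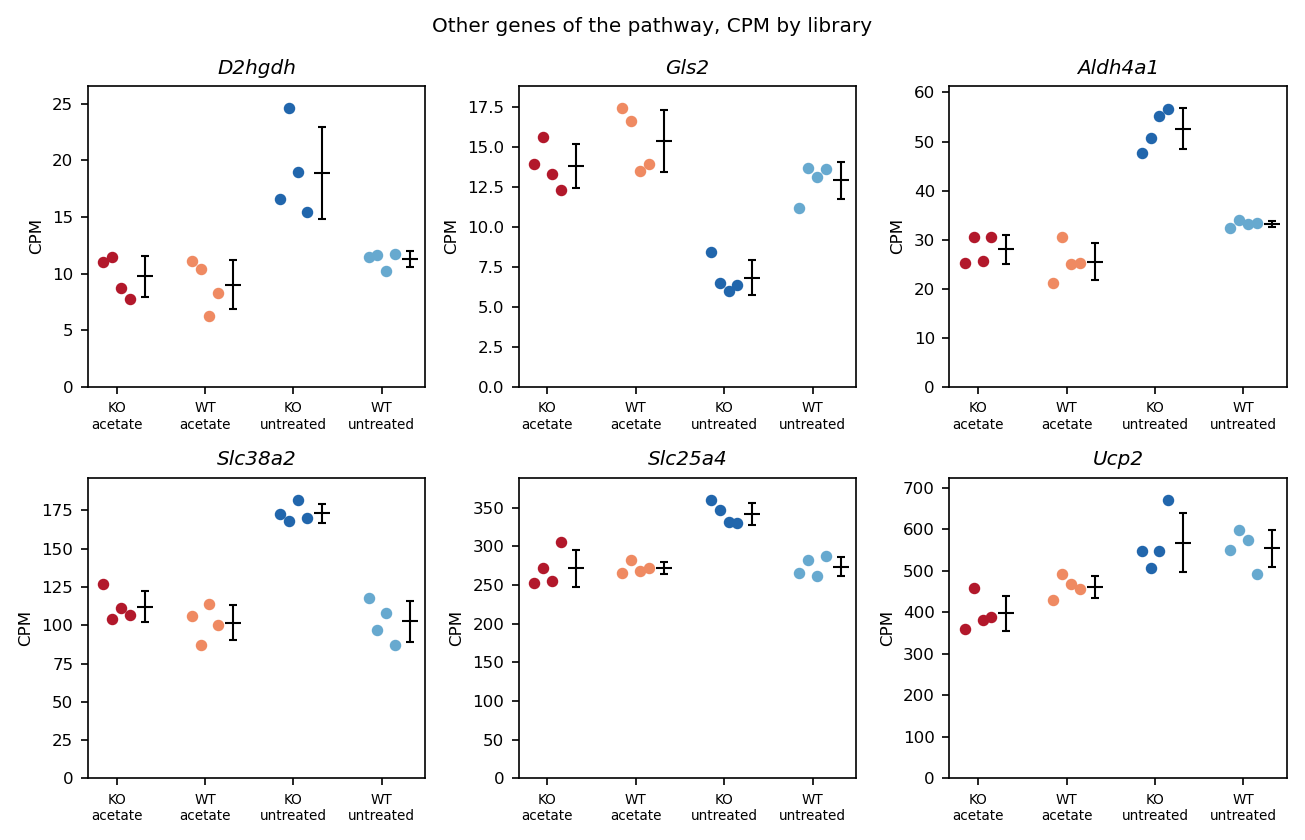
CPM of 6 other genes of the pathway in each library (dots, in replicate order), with the group mean and SD at the right of each group. The KO untreated libraries are the lowest for Gls2 and the highest for D2hgdh, Aldh4a1, Slc38a2 and Slc25a4, and those of Ucp2 lie above the KO acetate ones.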

How the data were processed

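The authors deposited a table of whole-number estimated counts per gene for the 16 libraries. Per the labels' protocols, libraries were made with the TruSeq Stranded mRNA kit, and per the submitters' processing notes Salmon, DESeq2 and DESeq were used; the sources used here do not give their roles or versions, the genome build or the annotation. Such estimates can divide reads among near-identical copies, so genes with close paralogs or pseudogenes are uncertain. Of the identifiers, 15221 carried a symbol and 350 did not.

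Groups came from the labels. One edgeR 4.0.16 fit of 16 libraries (R 4.3.3; TMM scaling, filterByExpr, robust quasi-likelihood, no block) was tested on simulated data and gave the fold changes, SE and Benjamini-Hochberg adjusted p-values over 14985 genes. CPM used the TMM-scaled library sizes. The common biological coefficient of variation was 0.144. Alternatives were library totals, RLE scaling, DESeq2 1.42.0, no filter, a replicate block, the compared groups alone, leaving out the 4 libraries in which one gene exceeded 3% of counts, and leaving out each library. The 30 genes, the lists and the motifs were chosen with earlier results of these data known. Values in every library are given for genes called and among the 6 smallest adjusted p of a comparison, called in the interaction, or without overlap in 3 or more of the 4 simple comparisons, and from each list of other genes up to 3 called genes per comparison were named; the library values of Got1 and the pairs of genes in the ratios were chosen after values were seen. Promoter windows came from RefSeq on GRCm38.p6. No protein sequence was used here. Some genes of the lists of other pathway genes and of the markers are counted but not reported by name here.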

Additional observations from a re-analysis of the deposited data

Results flagged for a closer look

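In 7 of 120 combinations of gene and group, 1 of the 4 libraries lay far from the other 3, where chance gives about 1 in 20. Aco1 was 60.8 CPM in WT untreated 2, against 62.6 in each of the others. Sdhc was 85.2 CPM in WT acetate 3, against 90.8 to 91.2. Fh1 was 67.1 CPM in KO untreated 1, against 74.5 to 75.6, and 87.1 CPM in WT untreated 1, against 93.3 to 93.7. Mdh2 was 314 CPM in KO untreated 4, against 267 to 270.0. Got2 was 264 CPM in KO untreated 4, against 219 to 226, and 278 CPM in WT untreated 4, against 314 to 317.

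For 7 of the 30 genes the acetate change differed between the genotypes by edgeR's test of the difference itself, given as the log2 change in KO minus that in WT cells. It was 0.59 for Slc25a12, 0.42 for Slc25a13, 0.37 for Got2, 0.31 for Idh3a and 0.25 for Suclg1, and -0.31 for Idh3g and -0.73 for Pcx. Among these 7 genes Got2 had a library apart in both untreated groups, as did Fh1, whose interaction was not called. Slc25a13 was also high in KO untreated 4.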

How the results depend on the processing

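Calls of the 30 genes did not reverse under any alternative. Of 56 calls, DESeq2 and the replicate block kept all 56, RLE scaling and no filter 55 each, library totals 43, the compared groups alone 43 of 49, and leaving out the 4 high-share libraries 40; leaving out 1 library at a time kept 817 and lost 79. Every alternative kept 10 of 15 calls in KO against WT untreated, 0 of 1 in KO against WT under acetate, 2 of 5 with acetate in WT, 10 of 18 with acetate in KO, 7 of 10 in KO acetate against WT untreated and 2 of 7 in the interaction. The number called in KO against WT under acetate, 1, became 5 with DESeq2, 3 with the replicate block, 4 without the high-share libraries and 0 with the acetate groups alone, and ran from 0 to 5 with 1 library left out. With acetate in WT, 5 became 3 under library totals, 9 with the replicate block and 8 with the WT groups alone, and ran from 3 to 7 with 1 library left out (3 without WT untreated 2). The interaction, 7, became 2 without the high-share libraries, and ran from 4 (without KO acetate 3 or KO untreated 2) to 8. The other counts stayed within 1.5 times, at 13 to 17 for 15, 15 to 18 for 18 and 8 to 11 for 10 with 1 library left out. The causes were not tested.

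Library totals moved the median of all genes by 0.104 with acetate in KO, and relative to it the median of the 30 was 0.04 against 0.05 under TMM. Over all genes, KO against WT under acetate gave 150 calls, 78 under library totals, 788 with DESeq2, 408 with the replicate block, 535 without the high-share libraries and 16 with the acetate groups alone; KO against WT untreated gave 3361 without the high-share libraries, against 5481, and the interaction 1010, against 1785. Leaving out 1 library at a time gave 21 to 661 calls in KO against WT under acetate. Of the calls in KO against WT untreated, 37.3% were higher under library totals and 49.2% under TMM.

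The labels do not say what a replicate number shares, and the numbers were not taken to pair the samples, since no comparison had all 4 same-number pairs over a correlation of deviations of 0.1. Of 24 such pairs 9 were over it (-0.084 to 0.229), KO acetate with KO untreated came nearest (0.086 to 0.165), and 9 of 16 libraries correlated best with their own number, a hint of pairing from the data alone. The replicate block raised the calls over all genes in every comparison, from 5481 to 5886 in KO against WT untreated. In the interaction they went from 1785 to 2259. The correlations do not settle whether the samples were paired. Depth, 24571177 to 33723470 counts, left the lowest value of any of the 30 genes in a library at 7.28 CPM, for Gpt2 in WT acetate 3. No value of the 30 was at 0.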
